A study of Arabidopsis thaliana with 12 samples.

Results

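Seedlings of the clf mutant were compared with wild type (WT) seedlings of the same age in Arabidopsis thaliana. The clf group holds 3 RNA-seq libraries of whole seedlings at 14 days and the WT group holds 3, so 6 of the 12 libraries of the study are described; lhp1 and pkl seedlings, with 3 libraries each, are cited only for genes named here. Plants of all groups grew on Murashige and Skoog medium under long days at 22 °C; the labels name neither the clf allele nor the accession, and no treatment. All 31788 loci of the deposited clf table were members, of which 31554 carry a gene name. Levels are FPKM, fragments normalised for transcript length and library size, as single values that the authors derived for each group. No values of single libraries were used, so levels are printed without an SD, and the depth behind them is unknown. Where lhp1 and pkl are set beside clf, the WT value is the same for all 3 mutants.

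CURLY LEAF (CLF) is a catalytic subunit of Polycomb repressive complex PRC2, which methylates histone H3 at lysine 27. The mark H3K27me3 is known for keeping flower, seed and other developmental genes silent in tissues where they are not needed, and clf plants are known for small curled leaves and early flowering. SWINGER (SWN) is a relative of CLF that works beside it in vegetative tissue, and MEDEA (MEA) is the relative known from the seed.

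A locus was called where the authors' Cuffdiff test was run and the q-value in the authors' deposited table was under 0.05, and "rose" and "fell" are used of such loci alone. The smallest q in the authors' deposited table is 0.000661, shared by all loci at the smallest p of 5e-05. Among 19370 tested named loci, 1384 rose (7.15%) and 1022 fell (5.28%). The labels do not say that libraries came from separate cultures, so the spread behind these p-values may be technical. In whole seedlings, fewer cells of a type and less RNA per cell cannot be told apart.

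CLF itself (AT2G23380, chromosome 2) stood at 0.264 FPKM in clf, 10.4 in lhp1, 8.39 in pkl and 8.37 in WT. Its log2 fold change in clf was -4.99, with q = 0.0520 in the authors' deposited table, which misses the threshold, and its locus overlaps another. SWN stood at 18.3 FPKM in clf and 17.6 in WT and was not called. MEA rose to 1.01 FPKM in clf, against 0.0855 in WT, and was the single call among 21 tested Polycomb and related silencing genes.

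Large rises outnumbered large falls, and rises began from lower WT levels. The typical sizes were closer. The median log2 fold change of called named loci above 0 in WT for rises, and in clf for falls, was 0.75 and -0.63. Counting loci listed at 0 in 1 group, at least 2-fold rises numbered 492 and falls 236, at least 4-fold rises 154 and falls 38, and at least 8-fold rises 71 and falls 9. Of the 68 single-gene nuclear loci that rose at least 8-fold or were listed at 0 in WT, 55 (80.9%) stood under 1 FPKM in WT, with a median of 5.55 FPKM in clf and 0.244 in WT. Over all named loci, the median WT level was 9.45 FPKM for loci that rose and 23.3 FPKM for loci that fell, beside 14 FPKM for all tested loci. The standard error implied by the p-values in the authors' deposited table and the log2 fold changes had a median of 0.615 at a mean level under 1 FPKM and 0.127 above 100 FPKM, so that small changes could be called only at higher levels: the smallest called log2 fold change was 0.68 in size under 1 FPKM and 0.32 above 100 FPKM.

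Split by the WT level, 10.6% of tested loci at 0.1 to 1 FPKM rose and 0.813% fell. At 1 to 10 FPKM, 8.33% rose and 4.53% fell, and at 10 to 100 FPKM, 6.13% and 5.43%. Above 100 FPKM the order turned, with 4.57% rising and 10.9% falling. The WT level also enters the fold change, and with loci sorted by the mean of both groups instead, the lowest class had 5.54% rising and 2.53% falling, while above 100 FPKM 6.1% rose and 9.59% fell.

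**Figure D1:**
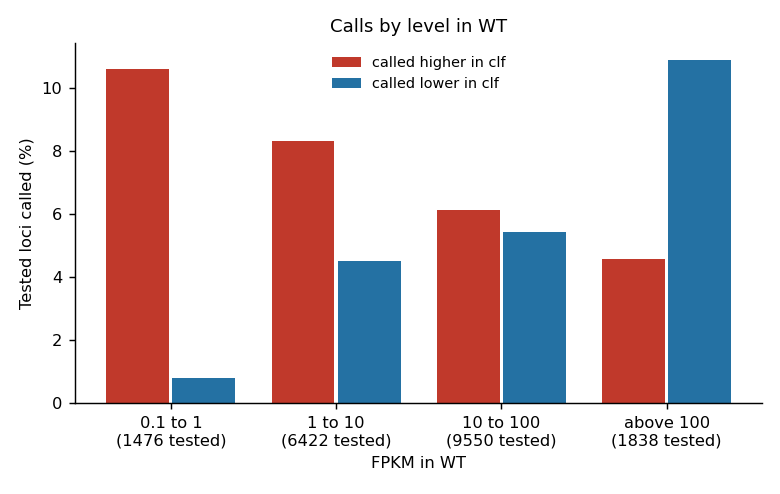
Share of tested named loci called higher (red) or lower (blue) in clf than in WT, by FPKM in WT; numbers under the bars are tested loci. Rises outnumber falls in the 3 classes up to 100 FPKM, and falls outnumber rises above it, at 10.9% against 4.57%.

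The 20 largest rises were ranked by log2 fold change among called single-gene loci whose higher group reached 5 FPKM. Loci listed at 0 in a group were left out. The 20 joined flower regulators with genes of other families. AT5G22430, of the Ole e 1 family, stood at 16.5 FPKM in clf, 60.9 in lhp1, 0.401 in pkl and 0.272 in WT. The MADS-box gene AG (AGAMOUS, AT4G18960), which specifies stamens and carpels, stood at 31.1 FPKM in clf, 11 in lhp1, 0.0612 in pkl and 0.594 in WT. AT5G39220, for an alpha/beta hydrolase, stood at 22.3 FPKM in clf, 11.3 in lhp1, 1.13 in pkl and 0.770 in WT. All 3 were high in clf and lhp1 and low in pkl and WT. The homeodomain-leucine zipper gene ATHB54 rose to 35.7 FPKM in clf, against 1.3 in WT. UMAMIT23, of a family of amino acid exporters, rose to 7.12 FPKM in clf, against 0.325 in WT, and the jacalin lectin gene JAL23 to 11.9, against 0.666. AT4G00870, for a basic helix-loop-helix protein, rose to 5.35 FPKM in clf, against 0.316 in WT, and BAM5, for a beta-amylase outside the plastid, to 107 FPKM in clf, against 7.88 in WT. The 20 log2 fold changes of the rises run between 3.76 and 5.93.

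Ranked in the same way, the 20 leading falls had log2 fold changes between -4.64 and -1.93. AT3G16670, also of the Ole e 1 family, fell to 23.4 FPKM in clf and stood at 7.81 in lhp1 and 636 in pkl, against 584 in WT. Its chromosome 3 neighbour AT3G16660 fell to 81.5 FPKM in clf and stood at 17.9 in lhp1 and 286 in pkl, against 334 in WT. These genes were low in clf and lhp1 and near the WT level in pkl. PDF1.3, for an antimicrobial defensin, fell to 4.81 FPKM in clf and stood at 31.3 in lhp1, 39.6 in pkl and 24.7 in WT, so that clf was the lowest of the 4 groups. AT2G36690, for an oxoglutarate-dependent oxygenase, fell to 4.90 FPKM in clf, against 18.8 in WT, and RL5, for a small RADIALIS-like MYB protein, to 2.81, against 10.8. AT1G43590, a pseudogene in the reference annotation, stood at 0.748 FPKM in clf, 0.268 in lhp1, 0.264 in pkl and 14.5 in WT, so that WT alone was high. The loci of MAPKKK19, AT5G57760, AT5G02760 and SAL2, also among the 20, overlap another locus, and their values are uncertain because no source used here gives a strand setting.

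**Figure D2:**
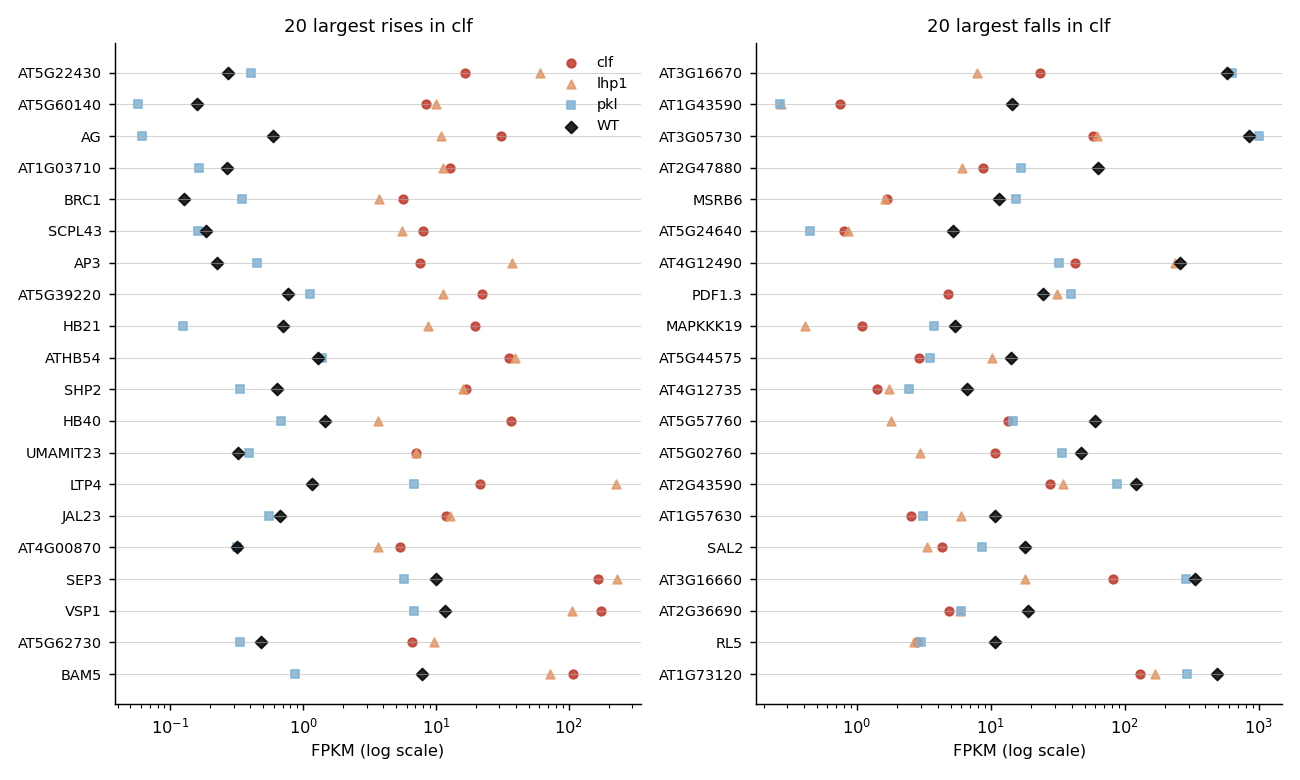
FPKM on a log scale for the 20 largest rises (left) and the 20 largest falls (right) in clf among called single-gene loci above 0 in both groups, each gene on its own line with 1 point per genotype. On the left clf (red circles) stands apart from WT (black diamonds) by at least 3.76 on the log2 scale, and on the right clf lies to the left of WT for each of the 20 genes.

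By difference in FPKM the leading rises and falls were mostly other genes, several of them for secreted and wall proteins. GASA1, for a small gibberellin-stimulated cysteine-rich peptide, rose to 1340 FPKM in clf, against 393 in WT. DR4, for a protease inhibitor-like protein, rose to 1745 FPKM in clf, against 1042 in WT, and TGG2, a myrosinase gene, to 504, against 212. The lipid transfer protein gene LTP6 rose to 382 FPKM in clf, against 107 in WT. On the falling side, the glycine-rich protein gene GRP3S fell to 2487 FPKM in clf, against 4034 in WT, and GRP-3 to 1256, against 1965. AZI1, needed for priming of systemic defence, fell to 383 FPKM in clf, against 1127 in WT, and CWLP, for a wall-plasma membrane linker protein, to 1122, against 1941. CA1, for the chloroplast carbonic anhydrase, fell to 1358 FPKM in clf, against 1950 in WT.

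Some genes were listed at 0 in WT. SAG12, a cysteine protease gene known as a marker of leaf senescence, was at 8.77 FPKM in clf, 4.51 in lhp1, and listed at 0 in pkl and WT. AT3G49270, for an extensin-like protein, was at 8.08 FPKM in clf and the defensin-like gene AT2G42885 at 7.05, and both were listed at 0 in WT. All 3 were called higher. AT2G44130, for a kelch repeat protein, was at 27.2 FPKM in clf and 0 in WT but was not called, its q being 0.319 in the authors' deposited table, and its locus overlaps another. In the other direction AT5G48710 and AT3G53820 were listed at 0 in clf and called lower, at 1.42 and 1.03 FPKM in WT.

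Calls were then counted in 32 lists of genes with a shared role. A list is read beside all tested single-gene nuclear loci, of which 17119 were tested, 7.56% rose and 5.55% fell, with a median log2((FPKM + 1)/(FPKM + 1)) of -0.0032 for clf over WT. Medians below are on that scale, which understates changes of weakly expressed genes. The largest share of rises, 50%, was reached by the senescence and the flower patterning lists, and the largest share of falls, 47.8%, by the phosphate list. Among list members named below, the loci of ALC, CKX5, FRK1, IRX3, JUB1, MAX1, NIP6;1, NRAMP1, PAR1, PHR1, PIF7, TCP3, WRKY33 and WRKY53 overlap another locus, so reads may be shared.

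**Figure D3:**
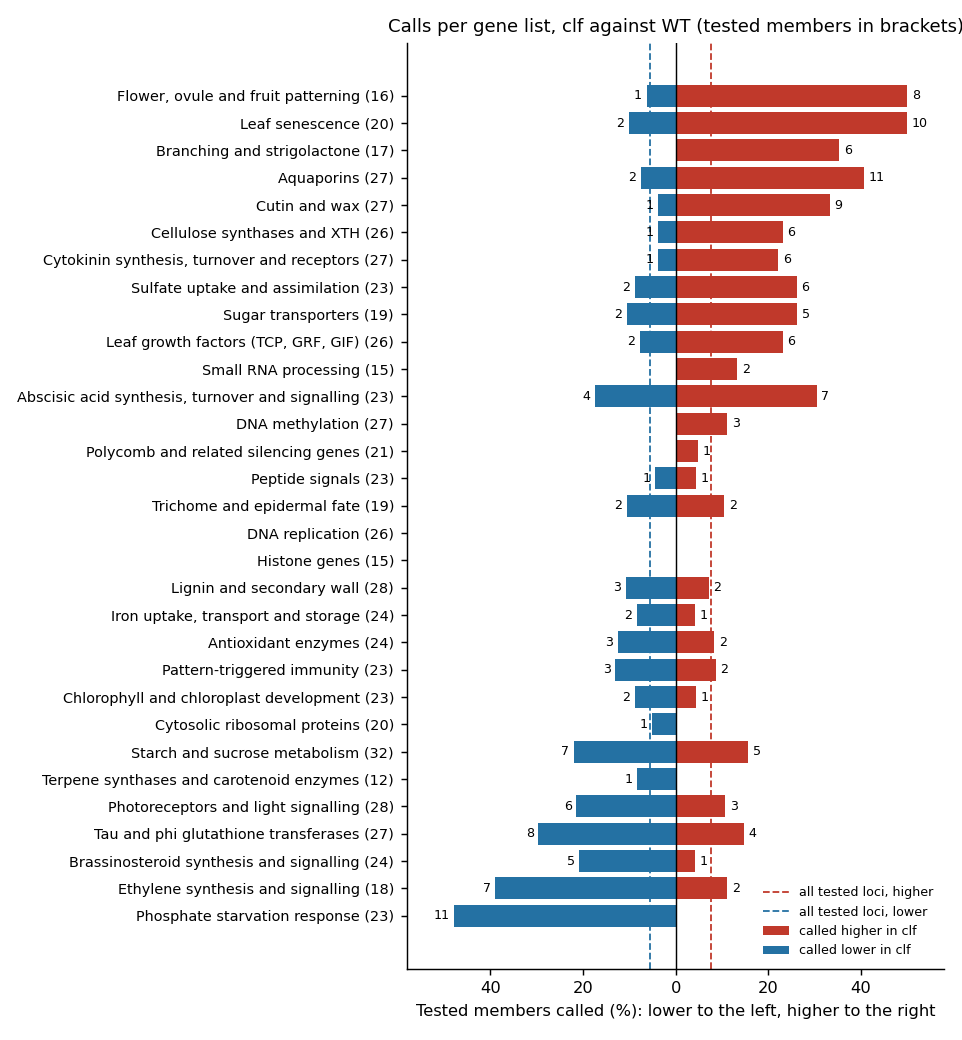
Share of tested members called higher (red, right) or lower (blue, left) in clf than in WT for each gene list reported, with tested members in brackets and called members at the bar ends. Dashed lines mark the shares over all tested single-gene nuclear loci, 7.56% higher and 5.55% lower; the phosphate list reaches furthest left and the flower patterning and senescence lists furthest right.

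Several genes known to hold back lateral buds rose. Of 17 tested branching and strigolactone genes 6 rose and 0 fell (35.3% and 0%), with 8 higher and 0 lower at a deposited unadjusted p under 0.05, and a median of 0.46. BRC1 (AT3G18550), the TCP factor that arrests axillary buds, stood at 5.62 FPKM in clf, 3.70 in lhp1, 0.343 in pkl and 0.127 in WT. HB21 (AT2G18550) stood at 19.7 FPKM in clf, 8.70 in lhp1, 0.125 in pkl and 0.704 in WT. Both BRC1 and HB21 were high in clf and lhp1 and low in pkl and WT. HB40 (AT4G36740) stood at 36.4 FPKM in clf, 3.64 in lhp1, 0.677 in pkl and 1.46 in WT, and clf was by far the highest. HB21, HB40 and HB53 encode homeodomain-leucine zipper proteins known to act downstream of BRC1 in buds, where they raise abscisic acid through NCED3. HB53 stood at 1.35 FPKM in clf and 1.26 in WT and was not called. BRC2, the close relative of BRC1, rose to 1.42 FPKM in clf, against 0.190 in WT, and SMXL7, for a repressor that strigolactone removes, to 17.8, against 12.2. MAX1, of strigolactone synthesis, rose to 21.1 FPKM in clf, against 13.4 in WT.

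The promoters of the leading branching genes are shown because the genes rose together, a choice made after their values were seen. They were taken from RefSeq (TAIR10.1) as 250 bases before and 50 after the annotated start, 5′ to 3′ on the gene's strand, at chr3:6383039-6383338 (plus strand), chr2:8051267-8051566 (minus) and chr4:17316392-17316691 (minus). Capitals mark letters of 6 motifs searched on both strands: the telobox AAACCCTA, the GAGA repeat GAGAGAGA, the G-box CACGTG, the site II element TGGGCC, the TATA box TATAAA and the CArG box, where neighbouring matches can overlap.
BRC1: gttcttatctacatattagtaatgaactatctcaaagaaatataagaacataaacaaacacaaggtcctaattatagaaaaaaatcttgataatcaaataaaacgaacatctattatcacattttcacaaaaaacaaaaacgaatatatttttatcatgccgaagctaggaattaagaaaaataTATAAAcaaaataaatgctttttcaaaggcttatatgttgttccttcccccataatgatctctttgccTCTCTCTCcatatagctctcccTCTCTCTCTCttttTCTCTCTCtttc
HB21: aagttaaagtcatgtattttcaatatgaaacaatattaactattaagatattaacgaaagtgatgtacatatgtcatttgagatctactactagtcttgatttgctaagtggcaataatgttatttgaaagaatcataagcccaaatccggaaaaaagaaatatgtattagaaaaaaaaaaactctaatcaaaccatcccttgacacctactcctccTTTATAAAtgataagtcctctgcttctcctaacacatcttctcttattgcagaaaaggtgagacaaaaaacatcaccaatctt
HB40: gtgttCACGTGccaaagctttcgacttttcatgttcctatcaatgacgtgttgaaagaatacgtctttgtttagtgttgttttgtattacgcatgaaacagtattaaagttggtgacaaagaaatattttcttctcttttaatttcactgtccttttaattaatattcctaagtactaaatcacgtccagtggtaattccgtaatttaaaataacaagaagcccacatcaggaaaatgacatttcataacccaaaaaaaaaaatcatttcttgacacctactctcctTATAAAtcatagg
The GAGA repeat was found on the other strand of the BRC1 window at positions 3, 25, 27 and 39 from the start, and the motif is in 8.38% of all promoters. TATAAA begins at position -66 from the start of BRC1, -31 from that of HB21 and 38 from that of HB40, and it is in 52.1% of all promoters. HB40 also holds a G-box at its far end, a motif of 7.68% of all promoters.

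Over all loci, these motifs were counted in the promoters of strongly called loci. The site II element was in 5.71% of 140 promoters of loci that rose at least 4-fold (95% Wilson interval 2.92% to 10.9%) and in 6.06% of 33 that fell at least 4-fold (1.68% to 19.6%), against 15.5% of all 27443 promoters and 18.2% of those of tested loci. The CArG box, the sequence MADS proteins bind, was in 0.714% of the promoters that rose (0.126% to 3.93%), in 3.05% of all promoters and in 3.25% of those of tested loci. The telobox, a motif bound by factors that recruit PRC2 in Arabidopsis, was in 5% of the promoters that rose (2.44% to 9.96%), in 6.22% of all promoters and in 5.57% of those of tested loci. The G-box was in 12.1% of the promoters that rose (7.72% to 18.6%), in 7.68% of all promoters and in 8.82% of those of tested loci, which lies inside the interval. The GAGA repeat was in 7.86% of the promoters that rose (4.44% to 13.5%) and in 8.49% of those of tested loci. The intervals cover counting error only, and a match is a description of letters in these windows.

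Many senescence genes rose. Of 20 tested, 10 rose and 2 fell (50% and 10%), with a median of 0.29. The NAC gene NAP, an activator of senescence, stood at 37.6 FPKM in clf, 11.8 in lhp1, 6.80 in pkl and 13.3 in WT, highest in clf. NYE1 and NYE2, whose products remove magnesium from chlorophyll, rose to 29.6 and 13.5 FPKM in clf, against 18 and 7.76 in WT, and PPH, for pheophytinase, to 64.1, against 45.5. WRKY53, for a senescence-linked WRKY factor, rose to 13.7 FPKM in clf, against 5.72 in WT. The 2 that fell were the NAC gene ORE1 (listed as NAC6), at 27.3 FPKM in clf and 41.1 in WT, and JUB1, for a NAC factor that delays senescence, at 2.13 FPKM in clf and 5.49 in WT. Of 10 tested genes annotated in RefSeq as senescence regulators of the DUF584 family, a group picked after its values were seen, 5 rose and 0 fell, with 7 higher and 0 lower at p under 0.05.

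Regulators of flower and fruit form outside the organ identity genes rose as well. Of 16 tested, 8 rose and 1 fell (50% and 6.25%), with a median of 0.50. The fruit genes ALC and SPT, for related helix-loop-helix proteins of the carpel, rose to 25.2 and 15.2 FPKM in clf, against 6.57 and 8.31 in WT. IND, for a regulator of the fruit valve margin, was at 1.21 FPKM in clf and listed at 0 in WT. JAG, for a zinc finger protein of lateral organ growth, rose to 1.18 FPKM in clf, against 0.262 in WT. HEC1, for a carpel helix-loop-helix protein, went the other way and fell to 0.580 FPKM in clf, against 2.51 in WT.

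Beside these lists, markers of anther and seed were near or at 0 in both groups, apart from TPD1, which stood at 23.7 FPKM in clf and 31.1 in WT. AMS, of the tapetum, was at 0.0319 FPKM in clf and 0.00504 in WT, MS1 was listed at 0 in both, and the seed markers CRA1, OLEO1 and FUS3 summed to 0.174 FPKM in clf and 0.317 in WT. Among all 26 tissue markers with a locus, 19 were tested, 3 rose (IRX3 of xylem, PDF1 of the epidermis and STM of the shoot meristem) and 3 fell (CASP1 and PRP3 of the root, and TPD1). The other markers of the 3 tissues with a rise were not called. XCP1 of xylem stood at 39.4 FPKM in clf and 31.6 in WT. The epidermis markers ML1 and FDH stood at 23.6 and 142 FPKM in clf, against 27.4 and 140 in WT. The meristem markers CLV3 and WUS, at 0.0559 and 0.0926 FPKM in clf and 0 in WT, were not tested. The 4 leaf mesophyll markers summed to 15385 FPKM in clf and 18854 in WT, and none was called. The part of other cell types in the results was not tested.

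Many phosphate starvation genes fell. Of 23 tested, 11 fell and 0 rose (47.8% and 0%), with 14 lower and 2 higher at p under 0.05, and a median of -0.37. The phosphate transporter gene PHT1;4 stood at 75.2 FPKM in clf, 42.7 in lhp1, 88.1 in pkl and 154 in WT. MGD3, whose enzyme makes galactolipid in place of phospholipid, stood at 32.9 FPKM in clf, 4.94 in lhp1, 39.8 in pkl and 68.9 in WT. The phosphatase gene PS2 stood at 71.6 FPKM in clf, 25.3 in lhp1, 84.6 in pkl and 144 in WT. All 3 were highest in WT and lowest in lhp1. The second transporter gene PHT1;2 fell to 10.9 FPKM in clf, against 21.4 in WT, and PHT1;1 and PHT1;2 are close copies, and no source used here says how reads were divided between them. The regulators PHR1 and PHL1, which activate this response, stood at 36.5 and 17 FPKM in clf, against 34.3 and 14.7 in WT, and were not called. SPX1, for a phosphate sensor, fell to 226 FPKM in clf, against 346 in WT; its locus and those of MGD2, PLDP2 and GDPD1 overlap another, and without overlapping loci 7 members fell. Beside this list, the 4 root markers summed to 2205 FPKM in clf and 2116 in WT, most of it from PYK10. Of the 4, 2 were called lower and none was at 0. CASP1, of the root endodermis, fell to 31.1 FPKM in clf, against 47.7 in WT, PRP3 to 97.2, against 130 in WT, while PYK10 stood at 2061 in clf and 1916 in WT and EXPA7 at 16.1 in clf and 22.3 in WT, not called. Their part in the result was not tested.

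Sulfur genes held more rises than falls. Of 23 tested sulfur genes 6 rose and 2 fell (26.1% and 8.70%). SDI1, a gene induced by sulfur deficiency, stood at 16.6 FPKM in clf, 2.32 in lhp1, 1.44 in pkl and 4.78 in WT. LSU1, of the same response, stood at 64.5 FPKM in clf, 11 in lhp1, 5.23 in pkl and 21.8 in WT. Both were high in clf and below WT in the other mutants. LSU3 rose to 12.5 FPKM in clf, against 4.74 in WT, and SULTR1;3, for a phloem sulfate transporter, fell to 1.94, against 3.51. Of 24 tested iron genes 1 rose and 2 fell (4.17% and 8.33%), together near the share over all loci, NRAMP1 being higher at 91.9 FPKM in clf and 63.9 in WT.

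**Figure D4:**
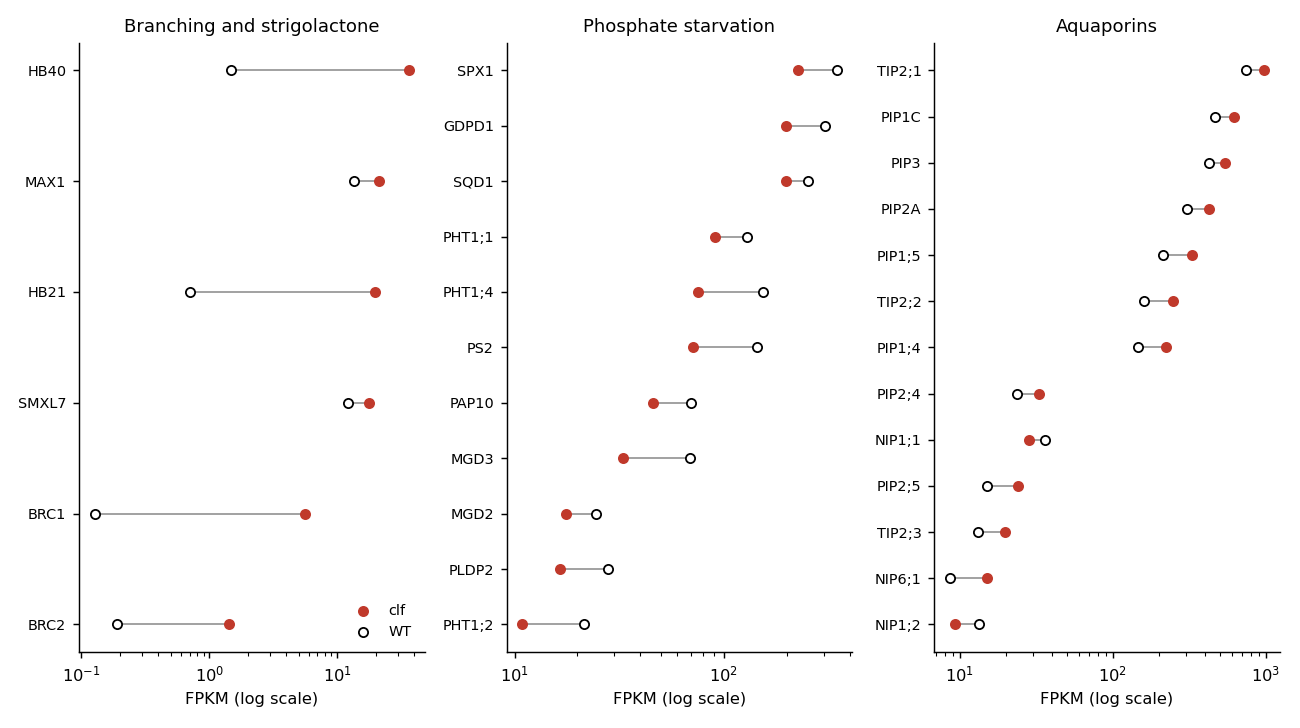
FPKM on a log scale of the called members of 3 gene lists in clf (filled red) and WT (open), joined by a line for each gene. All 6 called branching genes and 11 of 13 called aquaporins stand to the right of WT, and all 11 called phosphate genes to the left of it.

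Aquaporin genes, for membrane water channels, held more rises than falls, by small steps. Of 27 tested, 11 rose and 2 fell (40.7% and 7.41%), with a median of 0.20. The tonoplast gene TIP2;2 rose to 248 FPKM in clf, against 160.4 in WT, and the plasma membrane genes PIP1;5 to 330.4, against 214, and PIP2;5 to 24, against 15.1. NIP6;1, for a boric acid channel, had a log2 fold change of 0.81, at 15.1 FPKM in clf and 8.61 in WT. NIP1;1 and NIP1;2 were the members that fell. Sugar transporters other than SWEET had 5 rises and 2 falls of 19 (26.3% and 10.5%), SUC1, for a sucrose-proton symporter, rising to 245 FPKM in clf, against 116 in WT. Of 36 tested genes annotated as MtN21 or EamA-like transporters (UMAMIT), a group chosen after its values were seen, 12 rose and 1 fell (33.3% and 2.78%), UMAMIT29 rising to 24.0 FPKM in clf, against 3.94 in WT.

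Cuticle, cellulose synthase and xyloglucan endotransglucosylase genes held more rises than falls, and extensin-like genes held falls alone. Of 27 tested cutin and wax genes 9 rose and 1 fell (33.3% and 3.70%), with 4 rises at q under 0.01 in the authors' deposited table, and the median was 0.21. SHN3, for an activator of cuticle genes, rose to 1.2 FPKM in clf, against 0.258 in WT, DCR, for a cutin acyltransferase, to 52.1, against 23.1, and CER4, for a wax alcohol enzyme, to 2.26, against 0.962. Of 26 tested cellulose synthase and xyloglucan endotransglucosylase genes 6 rose and 1 fell (23.1% and 3.85%), XTH22 rising to 165 FPKM in clf, against 78.7 in WT, and XTH9 to 603, against 312. In the whole xyloglucan endotransglucosylase family by symbol, 7 rose and 4 fell of 30 tested (23.3% and 13.3%). Lignin genes had 2 rises and 3 falls of 28, among them CAD5, higher at 95.8 FPKM in clf and 63 in WT. Genes annotated as proline-rich extensin-like proteins, which are structural wall proteins and a group chosen after its values were seen, had 8 falls and 0 rises of 13 tested (61.5% and 0%), with 8 lower and 0 higher at p under 0.05. Among them EXT6 stood at 49.2 FPKM in clf and 88.0 in WT, and EXT10 at 62.1 in clf and 94.8 in WT; several extensin genes are known from root hairs, and the root markers above apply here too. These genes are close copies, so single values are uncertain.

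The light and brassinosteroid lists held more falls than rises. Of 28 tested light signalling genes 6 fell and 3 rose (21.4% and 10.7%), with a median of -0.03. PIF4, for a phytochrome-interacting factor that drives hypocotyl and petiole growth, stood at 1.10 FPKM in clf, 1.24 in lhp1, 1.28 in pkl and 2.96 in WT, with WT the highest. PIF3, PIF5 and PIF7 fell to 18.5, 7.49 and 3.98 FPKM in clf, against 34.3, 12.7 and 6.65 in WT, and PAR1 fell to 10.8, against 30.8. HFR1 and PIL1, of the shade response, rose to 4.47 and 0.890 FPKM in clf, against 2.78 and 0.330 in WT. Of 24 tested brassinosteroid genes 5 fell and 1 rose (20.8% and 4.17%). BEE3, a brassinosteroid-induced gene, fell to 16.3 FPKM in clf, against 57.7 in WT, PRE6 to 5.43, against 14.9, and BEE1 to 9.09, against 17.5; the receptor gene BRL3 rose to 12.6, against 8.78.

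Ethylene genes held more falls than rises, and abscisic acid and cytokinin genes more rises than falls. Of 18 tested ethylene genes 7 fell and 2 rose (38.9% and 11.1%), with a median of -0.37. ACO4, for a final enzyme of ethylene synthesis, fell to 265 FPKM in clf, against 464 in WT, and the response factor genes EDF1 and EDF2 to 63.7 and 99.6, against 108 and 174. ACS6 and ACS7, for the rate-limiting enzyme, went the other way and rose to 22.2 and 9.20 FPKM in clf, against 11.4 and 5.38 in WT. Another gene for this enzyme, ACS2, was among the 7 that fell, with q = 0.00703 in the authors' deposited table. Abscisic acid genes had 7 rises and 4 falls of 23 (30.4% and 17.4%), with a median of 0.09. NCED3, for the limiting step of abscisic acid synthesis, rose to 2.64 FPKM in clf, against 0.791 in WT, and the breakdown enzyme gene CYP707A3 to 6.39, against 2.92. The phosphatase genes HAI1 and HAI2, which damp the response, rose to 5.18 and 0.844 FPKM in clf, against 1.39 and 0.116 in WT, while the receptor genes PYL4 and PYL5 fell to 201 and 80.5, against 311 and 123. Of 27 tested cytokinin genes 6 rose and 1 fell (22.2% and 3.70%). CKX3 and CKX5, for cytokinin oxidases that remove the hormone, rose to 2.03 and 4.28 FPKM in clf, against 0.448 and 0.886 in WT, and IPT5, of its synthesis, to 5.16, against 2.62.

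The remaining lists held calls in both directions or few calls. Leaf growth factors had 6 rises and 2 falls of 26 (23.1% and 7.69%), GRF8 rising to 3.46 FPKM in clf, against 1.34 in WT, and TCP3 falling to 40.3, against 56.4. Starch and sucrose genes had 5 rises and 7 falls of 32, the sucrose synthase gene SUS1 rising to 62 FPKM in clf, against 35.9 in WT, and GPT2, for a plastid sugar phosphate carrier, falling to 1.39, against 3.99. Tau and phi glutathione transferases had 8 falls and 4 rises of 27 (29.6% and 14.8%), GSTU9 falling to 7.76 FPKM in clf, against 19.2 in WT. Pattern-triggered immunity genes had 2 rises and 3 falls of 23, FRK1 falling to 2.41 FPKM in clf, against 7.31 in WT, and WRKY33 rising to 72.7, against 28. Trichome genes had 2 rises and 2 falls of 19, the trichome activator gene GIS falling to 0.545 FPKM in clf, against 1.90 in WT. Antioxidant enzymes had 2 and 3 of 24, peptide signals 1 and 1 of 23, chlorophyll genes 1 and 2 of 23, and terpene and carotenoid genes 0 and 1 of 12, with 1 higher and 1 lower at p under 0.05.

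Genes of DNA methylation had 3 rises and 0 falls of 27, with 4 higher and 1 lower at p under 0.05. ROS1, for the DNA demethylase, rose to 21.4 FPKM in clf, against 10.6 in WT, and AGO9, of the ovule, to 0.760, against 0.158. Small RNA genes had 2 rises, AGO3 and AGO10, and 0 falls of 15, with 3 higher and 0 lower at p under 0.05. No member was called among 26 DNA replication genes and 15 histone genes, with 0 higher and 1 lower at p under 0.05 in each. Of 20 cytosolic ribosomal protein genes 0 rose and 1 fell, with 0 higher and 3 lower at p under 0.05, though all 20 stood lower in value in clf, at a median of -0.15; RPL10C fell to 311 FPKM in clf, against 389 in WT.

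Families defined by gene symbol give a further view, for those with at least 8 tested members. Among the families reported, the highest shares of rises were in ethylene response factors (37.5% of 24), serine carboxypeptidase-like genes (36.7% of 30), aquaporins (34.3% of 35), lipid transfer proteins (33.3% of 12) and SPL genes (29.4% of 17). Among ethylene response factors 9 rose and 2 fell. AT5G51190 rose to 61.7 FPKM in clf, against 8.42 in WT, and ERF5 to 28.2, against 8.10. SCPL43 stood at 8.04 FPKM in clf, 5.54 in lhp1, 0.161 in pkl and 0.186 in WT, and SPL4, a target of microRNA156, rose to 23.2 FPKM in clf, against 4.38 in WT. The highest shares of falls were in cysteine-rich receptor-like kinases (30.4% of 23, none higher, or 1 higher and 10 lower at p under 0.05), Aux/IAA genes (26.9% of 26), lipid transfer proteins (25% of 12), pectin methylesterases (23.1% of 13), glutathione transferases (21.6% of 37) and ABCB transporters (21.4% of 14). CRK12 fell to 1.21 FPKM in clf, against 4.78 in WT, and IAA29, for an auxin repressor, to 0.233, against 1.74. Symbol families can take in unrelated genes: the aquaporin family holds the kinase gene PIP5K1 and the Aux/IAA family the response factor gene MP.

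Called loci also lay side by side. Runs of at least 3 consecutive tested loci called in the same direction numbered 34 (17 higher and 17 lower), holding 113 loci. Some members are not separate neighbours: AT3G22142 and AT5G12270 are each counted more than once at the same interval. AT1G32928 and AT1G32930 also share an interval, as do SHP1 and GAUT15. With loci that overlap another left out, runs numbered 33. These are not all among the 34, since several runs lose members. Leaving loci out also makes separated loci consecutive, which forms other runs. The called share varied little between chromosomes, from 6.11% to 7.72% for rises and from 4.87% to 5.74% for falls. The 3 runs of 5 loci were all rises.

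The run on chromosome 5 from 19421314 to 19461735 (TAIR10) holds the thalianol cluster, neighbouring genes for successive steps of a root triterpene pathway. THAS1, the thalianol synthase gene, rose to 27.5 FPKM in clf, against 12.3 in WT. CYP708A2, for thalianol hydroxylase, rose to 55.6 FPKM in clf, against 19.6 in WT, and CYP705A5, for the desaturase, to 60.4, against 27.6. The acyltransferase gene AT5G47980 rose to 5.84 FPKM in clf, against 3.09 in WT, and RABA4C, a Rab GTPase gene outside the pathway, to 16.4, against 7.80. The log2 fold changes of the 4 thalianol genes lay between 0.92 for AT5G47980 and 1.5 for CYP708A2. The related marneral cluster, also on chromosome 5, was a run of 3 rises, with CYP71A16 at 6.89 FPKM in clf and 2.68 in WT, CYP705A12 at 3.52 in clf and 1.01 in WT, and MRN1 at 0.634 in clf and 0.0643 in WT. Beside these root pathways, the root markers CASP1 and PRP3 fell, while PYK10 and EXPA7 were not called, as given above. The 4 root markers summed to 2205 FPKM in clf and 2116 in WT, of which PYK10 gave 2061 and 1916. CASP1, PRP3 and EXPA7 each stood lower in value in clf. The part of the root markers in these rises was not tested.

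The RefSeq promoters of the thalianol genes are shown because neighbours rose together, in the same form as above, at chr5:19428638-19428937 (plus strand), chr5:19434508-19434807 (plus), chr5:19447817-19448116 (minus) and chr5:19456587-19456886 (plus).
AT5G47980: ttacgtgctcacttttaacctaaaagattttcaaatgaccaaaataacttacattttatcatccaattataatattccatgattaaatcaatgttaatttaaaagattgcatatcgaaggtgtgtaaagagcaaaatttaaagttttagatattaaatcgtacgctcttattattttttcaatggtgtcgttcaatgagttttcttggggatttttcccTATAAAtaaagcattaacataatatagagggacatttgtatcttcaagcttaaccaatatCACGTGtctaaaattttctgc
CYP705A5: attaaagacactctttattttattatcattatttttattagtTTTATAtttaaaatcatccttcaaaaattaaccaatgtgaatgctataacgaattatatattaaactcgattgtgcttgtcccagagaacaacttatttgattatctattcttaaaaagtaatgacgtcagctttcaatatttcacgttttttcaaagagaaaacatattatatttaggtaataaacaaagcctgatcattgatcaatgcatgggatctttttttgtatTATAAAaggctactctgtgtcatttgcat
CYP708A2: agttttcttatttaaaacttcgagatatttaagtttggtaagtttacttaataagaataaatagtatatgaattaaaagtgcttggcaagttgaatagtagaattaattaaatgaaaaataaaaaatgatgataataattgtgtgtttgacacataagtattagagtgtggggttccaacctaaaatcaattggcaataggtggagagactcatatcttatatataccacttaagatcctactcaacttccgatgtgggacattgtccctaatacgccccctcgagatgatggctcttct
THAS1: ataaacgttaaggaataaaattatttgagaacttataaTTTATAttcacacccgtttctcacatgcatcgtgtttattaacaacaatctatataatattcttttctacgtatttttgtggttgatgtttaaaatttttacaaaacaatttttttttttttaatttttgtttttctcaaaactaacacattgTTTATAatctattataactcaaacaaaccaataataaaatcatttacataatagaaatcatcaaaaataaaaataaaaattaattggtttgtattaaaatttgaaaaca
AT5G47980 holds TATAAA at position -31 from its start and a G-box at position 30. CYP705A5 holds it on the other strand at position -208 and on its own strand at position 22, and THAS1 holds it on the other strand only. The CYP708A2 window holds none of the 6 motifs, and no motif is common to all 4.

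Other runs joined relatives or unlike genes. On chromosome 5, 5 neighbouring loci from AT5G37990 to AT5G38020 rose; AT5G37990, for an S-adenosylmethionine-dependent methyltransferase, rose to 36.6 FPKM in clf, against 18.8 in WT, and between it and the methyltransferase gene AT5G38020 lie genes for a dehydrogenase and a UDP-glycosyltransferase and a locus annotated as other RNA. On chromosome 4, AZI1, EARLI1, AT4G12490 and AT4G12500, for hybrid proline-rich proteins, all fell, AT4G12490 to 42.4 FPKM in clf, against 259 in WT, and EARLI1 to 429, against 849. On chromosome 2, the chitinase genes CHI, AT2G43590, AT2G43600 and AT2G43610 fell, AT2G43590 to 27.8 FPKM in clf, against 122 in WT. On chromosome 1, the berberine-type oxidase genes AT1G26380, AT1G26390, AT1G26410 and AT1G26420 fell, AT1G26380 to 4.82 FPKM in clf, against 11.9 in WT. Tandem relatives share sequence, and no source used here says how reads that match several of them were divided.

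**Figure D5:**
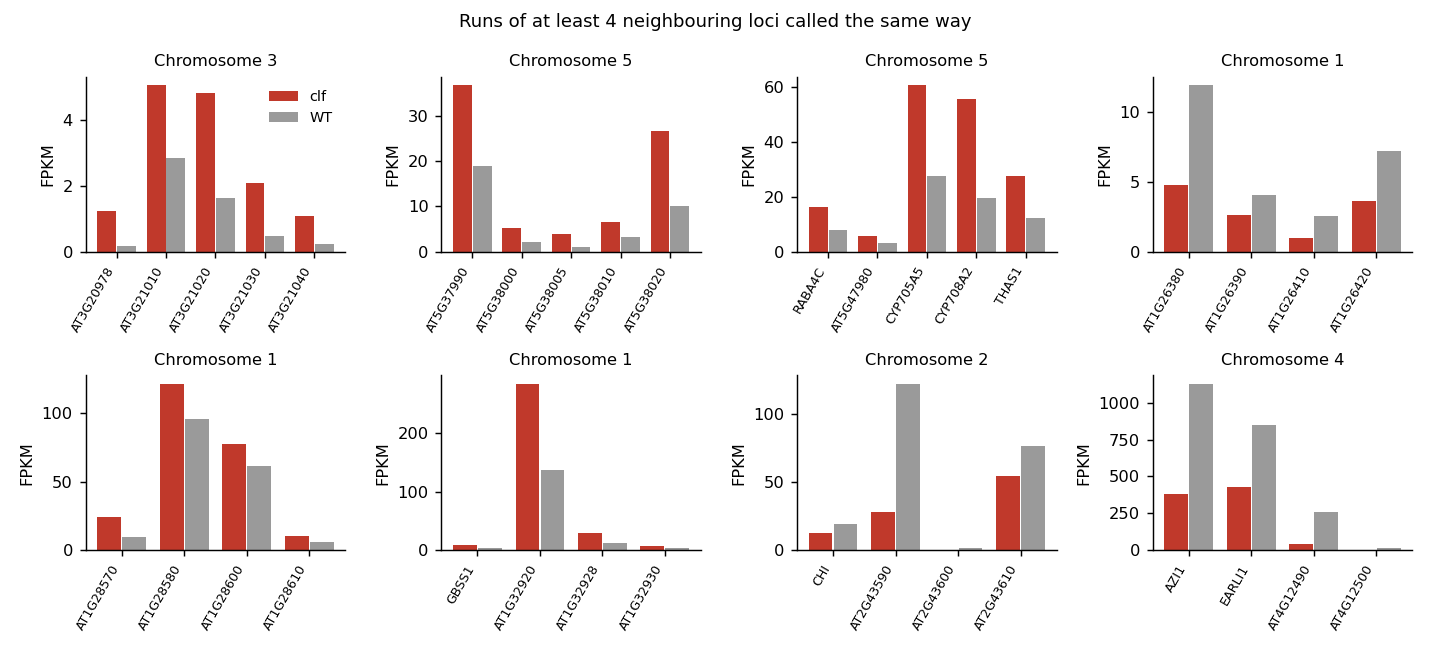
FPKM in clf (red) and WT (grey) for the members of the 8 runs of at least 4 neighbouring loci called in the same direction, in the order of the loci, with its own axis in each panel. The thalianol cluster on chromosome 5 is higher in clf at every member, with CYP705A5 at 60.4 FPKM in clf and 27.6 in WT; the run on chromosome 4 is lower in clf at every member.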

How the data were processed

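The report covers 3 clf and 3 WT libraries of whole seedlings at 14 days, with group values of lhp1 and pkl for named genes. Per the submitters' processing notes, TopHat, Cufflinks 2.1.1, Cuffdiff 2.1.1 and the TAIR10 build were used; no source used here gives the trimming, annotation, strand setting or division of shared reads. Per the file headers, each locus has a single FPKM value for a group, as deposited, with p-values and q-values from the authors' Cuffdiff test. The deposited log2 fold change and test statistic columns were left aside; fold changes on the log2 scale were taken from the deposited FPKM values, with a pseudocount of 1 for medians. The FPKM values keep no counts, so depth per library and its precision are unknown and no count test was run.

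A call is an authors' q-value under 0.05 at a locus with a completed test. Symbols, products and promoters came from RefSeq TAIR10.1, matched by gene identifier for 28809 single-gene loci. List, family and product counts used nuclear single-gene loci. Of 899 list entries, 27 matched no gene or several, 88 had no locus of their own and 55 were not tested. The members and lists were chosen with earlier results of these data known. Named genes were CLF, SWN and MEA, the 20 largest called rises and falls whose higher group reached 5 FPKM, leaving out loci listed at 0 in a group, the 10 largest by difference, up to 4 called members per list (where none was called, the 2 with the highest mean), up to 8 loci listed at 0 in a group, members of the longest runs and up to 3 called members of the leading families. Further list members, product groups and the promoters shown were chosen after their values were seen. The results of 1 list and 1 family are not reported here. Separate versions of the calling rule and of the run search were tried on simulated data. The list, family and product counts were not tried in this way. Python 3.11.15, pandas 2.3.3, NumPy 2.4.6, SciPy 1.17.1 and matplotlib 3.10.9 were used. Alternatives were a stricter q, Benjamini-Hochberg adjustment over the clf table alone, other scalings and pseudocounts, a filter on low FPKM and, added after seeing the data, leaving out overlapping loci.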

Additional observations from a re-analysis of the deposited data

Results flagged for a closer look

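A locus without a gene name on chromosome 5, of 150 bases from 14588689 to 14588838 (TAIR10), stood at 75606.5 FPKM in clf and was listed at 0 in lhp1, pkl and WT, with q = 0.00368 in the authors' deposited table. It lies outside the named loci that the counts use, and it drew attention because its level made up 7.62% of the FPKM sum of clf while every other group was at 0. FPKM of so short a locus rests on a length correction, and the part of that correction in the value was not tested.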

How the results depend on the processing

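Of 414 values recomputed under alternatives, 363 kept their direction and stayed within 1.5 times the reported count or close to the reported value, 49 moved further and 2 turned sign. At q under 0.01 in the authors' deposited table, 628 loci fell, 4 cuticle genes rose and 99 family members fell, since fewer loci pass. With folds of FPKM + 1, at least 2-fold rises numbered 311 and falls 137, at least 4-fold rises 63 and falls 11, and at least 8-fold rises 20 and falls 3. By the mean level of both groups, 5.54% of loci at 0.1 to 1 FPKM rose and 2.53% fell. Runs of at least 4 loci numbered 8, and 7 phosphate genes fell without overlapping loci. The median of the trichome list turned to -0.018 among members with at least 1 FPKM, and that of the replication list to 0.016 after scaling by the median ratio of clf to WT, 0.986; the cause was not tested. Of the other values, 36 moved, 21 of them at q under 0.01. No paired analysis was possible because the deposited values are 1 per group and carry no replicate number; for the same reason no library could be left out. All calls rest on the spread that the authors' Cuffdiff run estimated, which cannot be checked without values of single libraries.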
